A study of Rattus norvegicus with 5 samples.

Results

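Interleukin-1 alpha (Il1a), interleukin-1 beta (Il1b), interleukin-6 (Il6), tumour necrosis factor (Tnf) and the granulocyte colony-stimulating factor G-CSF (Csf3) were read by 10 probe sets on oligonucleotide arrays of rat lung RNA. They were taken as every probe set whose platform annotation names one of these 5 genes, out of 8740 probe sets that are not array controls. Il1a and Il1b had 3 probe sets each, Il6 had 2, and Tnf and Csf3 had 1 each. The choice used no measured value of the arrays, although it was made with earlier results of these data known.

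Each of 5 groups had 1 array, hybridised with a pool of equal amounts of RNA. The early, intermediate and late arrays held lung RNA taken 2, 4 and 6 h, 15, 18 and 21 h, and 24, 32 and 40 h after EHC-93, an urban particulate matter, was instilled into the trachea. Saline was instilled in the same way for the sham array, which pooled 2, 15 and 24 h, and the untreated array pooled 3 rats with no instillation. The labels give no strain, sex or age, and no number of instilled rats. The early pool therefore had no saline control of exactly its own times, and with 1 array a group, differences between arrays are given without a test or an error.

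Values are the deposited intensities scaled to the same median on every array. The 40th percentile of these values over the whole table, 172.53, served as a floor, and values under it have no order. A call of higher or lower means a distance of 2-fold or more from the sham and also from the untreated array, and a fold against a value under the floor is a lower bound, written "at least". Of 6188 probe sets that exceeded the floor on any array, 222 differed at least 2-fold between the sham and untreated arrays themselves. Between 5191 and 5346 probe sets lay above the floor on an array. The 5′ to 3′ signal ratio of beta-actin (lower where transcripts or their copies are cut short) was 43.05% in the early pool, 9.07% in the intermediate, 19.58% in the late pool, 14.71% in the sham pool and 24.39% in the untreated pool. Surfactant protein C (Sftpc), a defining transcript of alveolar type 2 cells, lay between 48085 and 71970 on the 5 arrays.

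These 5 cytokines are alarm signals of injured or infected tissue. IL-1 alpha and IL-1 beta act through the same receptor, IL-1 alpha also as a preformed protein set free by damaged cells and IL-1 beta after cleavage by caspase-1; TNF acts through its own receptors, and both routes activate the transcription factor NF-kB. IL-6 signals through JAK kinases and STAT3 and drives the acute phase response, and G-CSF promotes the production and survival of neutrophils. In the lung, alveolar macrophages and epithelial cells are known sources of these signals after particles are inhaled.

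The promoters are shown because the 5 genes share an early peak, described further on, and because their control by a few stress-activated factors is textbook knowledge. RefSeq windows from 250 bases before to 50 bases after the annotated start were matched for 4 of the 5 genes by gene symbol, in the rat build GRCr8. They lie at chr3:136989968-136990267 (minus strand) for Il1a, chr3:137036532-137036831 (minus strand) for Il1b, chr4:5894526-5894825 (minus strand) for Il6 and chr20:3626435-3626734 (plus strand) for Tnf. The sequences run 5′ to 3′ on the strand of the gene, and capitals mark matches on either strand to the NF-kB consensus, the AP-1 site TGANTCA, the C/EBP site TTNNGNAA, the cyclic AMP response element (CRE) core GACGTC or the TATA box TATAAA.
Il1a: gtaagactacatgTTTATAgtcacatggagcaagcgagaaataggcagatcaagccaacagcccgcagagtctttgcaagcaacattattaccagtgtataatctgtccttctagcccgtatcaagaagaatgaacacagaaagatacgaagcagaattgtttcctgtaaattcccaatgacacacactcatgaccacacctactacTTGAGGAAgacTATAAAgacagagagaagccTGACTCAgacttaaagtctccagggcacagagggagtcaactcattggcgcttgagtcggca
Il1b: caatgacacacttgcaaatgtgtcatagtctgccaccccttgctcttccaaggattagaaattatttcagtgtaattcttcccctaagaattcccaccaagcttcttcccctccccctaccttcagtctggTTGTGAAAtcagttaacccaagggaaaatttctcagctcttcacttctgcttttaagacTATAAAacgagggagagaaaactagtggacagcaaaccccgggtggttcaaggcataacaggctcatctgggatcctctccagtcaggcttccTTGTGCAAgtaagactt
Il6: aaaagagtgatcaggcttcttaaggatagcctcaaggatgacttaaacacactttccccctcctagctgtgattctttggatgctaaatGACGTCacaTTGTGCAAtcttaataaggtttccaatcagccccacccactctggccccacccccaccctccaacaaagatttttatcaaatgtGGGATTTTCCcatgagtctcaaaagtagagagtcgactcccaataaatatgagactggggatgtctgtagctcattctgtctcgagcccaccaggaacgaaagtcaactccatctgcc
Tnf: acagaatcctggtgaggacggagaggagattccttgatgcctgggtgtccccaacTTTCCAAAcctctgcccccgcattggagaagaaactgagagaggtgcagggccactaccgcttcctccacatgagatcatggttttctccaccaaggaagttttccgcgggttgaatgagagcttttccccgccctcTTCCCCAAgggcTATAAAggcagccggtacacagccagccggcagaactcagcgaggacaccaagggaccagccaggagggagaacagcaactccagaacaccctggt

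The Il6 window held a CRE core from -161 to -156, a C/EBP match from -152 to -145 and the only NF-kB consensus match among the 4 windows, from -68 to -59 relative to the start. The Il1a window held the only AP-1 match, from -12 to -6. A C/EBP match was present in 4 of 4 windows, against 41.3% of all 33469 RefSeq promoter windows of that length. The TATA box was present in 3 of 4 windows, against 14.2% of all, while NF-kB, AP-1 and CRE core matches, each in 1 of 4, were present in 7.51%, 7.33% and 4.47%. No 2 matches in a window overlapped. A match is a string of letters and does not show that a factor binds. Its absence does not show that a gene lacks such a site, because sites outside the window or departing from the string were not counted.

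**Figure D1:**
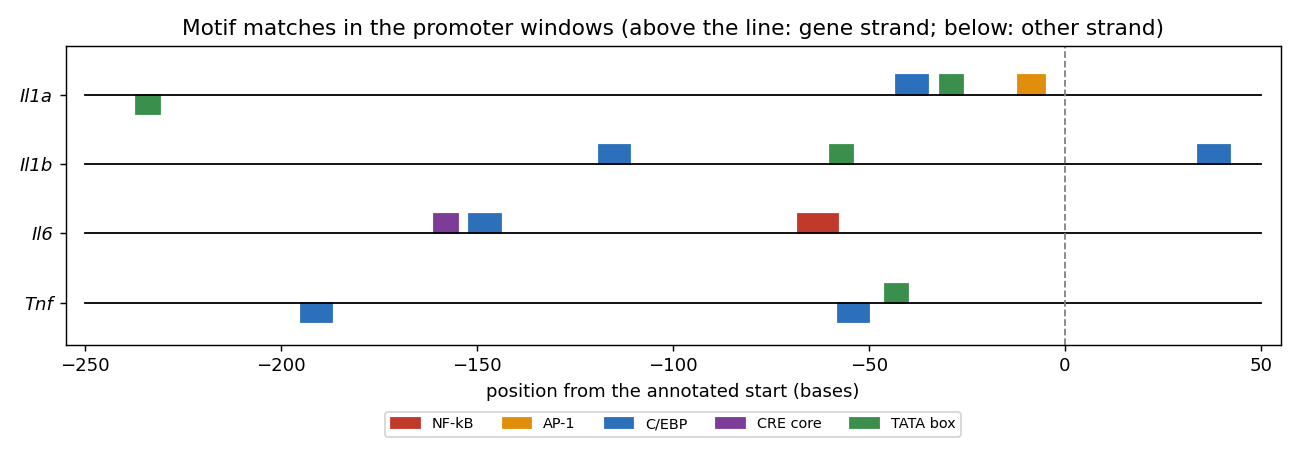
Positions of motif matches in the promoter windows of Il1a, Il1b, Il6 and Tnf, from 250 bases before to 50 bases after the annotated start (x axis, bases). Boxes above a line lie on the strand of the gene and boxes below it on the other strand; C/EBP matches occur in all 4 windows and the NF-kB consensus in Il6 alone.

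On the early array, 8 of the 10 probe sets, and at least 1 for each of the 5 genes, were at least 2-fold higher than both control arrays, and none was lower. Over all probe sets tested, 3.17% were called higher and 0.452% lower. Il1b, and Il6 by M26744_at, had the largest differences as floored. Those of Il6 and Tnf are lower bounds, so the true order among the genes is not known. The remaining 2 probe sets were M26745cds_s_at of Il6 and E05489cds_s_at of Il1a, which lay close to or under the floor. The probe sets of Il6 and Tnf passed the floor in the early pool alone, so for them being above it and being higher are not separate observations.

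Il1b, the main secreted form of IL-1, read 4479 in the early pool, 3451 in the intermediate and 2057 in the late pool by probe set M98820_at, against 1131 in the sham pool and 692 in the untreated pool. The early array was 3.96-fold above sham and 6.48-fold above untreated. M98820_g_at, built on the same GenBank sequence, read 2379, 1141 and 889 in the early, intermediate and late pools, against 376 in the sham pool and 384 in the untreated pool. E01884cds_s_at, from another sequence, read 1171, 508 and 357 in the early, intermediate and late pools, against 240 in the sham pool and 125, under the floor, in the untreated pool. All 3 therefore gave the order early, intermediate, late, and each exposed array lay above both controls by each of them.

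Il1b was also the gene that stayed called on later arrays. On the intermediate array all 3 of its probe sets were higher, at 3.05-fold, 3.04-fold and 2.12-fold over sham for M98820_at, M98820_g_at and E01884cds_s_at, where 0.824% of all probe sets were called higher and 0.339% lower. E01884cds_s_at no longer passed with values as deposited (log2 difference 0.89) or scaled to equal 75th percentiles (0.90), or with the floor at the 60th percentile (0.15). On the late array, M98820_g_at alone was called, at 2.37-fold over sham and 2.32-fold over untreated, where 0.566% of all probe sets were called higher and 0.953% lower. With the floor at the 60th percentile its log2 difference was 0.96 and it was not called. M98820_at was 1.82-fold over sham and 2.97-fold over untreated on that array, and E01884cds_s_at was 1.49-fold over sham and at least 2.07-fold over untreated.

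The probe sets of Il1b differed in how much of the early level was left. The intermediate level was 0.77 of the early level by M98820_at, but 0.48 by M98820_g_at and 0.434 by E01884cds_s_at. The late level was 0.459, 0.374 and 0.305 of the early level in the same order of probe sets. They differed likewise between the controls: sham over untreated was 1.63-fold by M98820_at, 0.978-fold by M98820_g_at and at least 1.39-fold by E01884cds_s_at.

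Il1a, the IL-1 form held in cells, read 1122 in the early pool, 506 in the intermediate and 533 in the late pool by D00403_at, against 430 in the sham pool and 366 in the untreated pool. That early level was 2.61-fold over sham and 3.07-fold over untreated. D00403_g_at, from the same sequence, read 707, 356 and 235 in the early, intermediate and late pools, against 338 in the sham pool and 244 in the untreated pool. Its early fold over sham, 2.1, fell under the threshold with values as deposited (log2 difference 0.94), with 75th percentile scaling (0.88) and with a floor at the 60th percentile (0.63). On both later arrays neither probe set was called, and in the late pool D00403_g_at was 0.697-fold of sham where D00403_at was 1.24-fold. The other Il1a probe set, E05489cds_s_at, lay under the floor everywhere, at 137, 89.8 and 59.7 in the early, intermediate and late pools, against 19.8 in the sham pool and 11.2 in the untreated pool.

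Il6, the acute phase inducer, was above the floor in the early pool alone. M26744_at read 1004 there, 169 in the intermediate pool and 84.1 in the late pool, against 46.6 in the sham pool and 62.2 in the untreated pool, so that 4 of 5 values lay under the floor and the early array was at least 5.82-fold above each of the others. The intermediate value lay just under the floor. With the floor at the 20th percentile it was called higher than both controls (log2 difference 1.44). The second probe set, M26745cds_s_at, read 193 in the early pool, 14.3 in the intermediate and 15.1 in the late pool, against 11.3 in the sham pool and 23.4 in the untreated pool. It was above the floor in the early pool alone, at least 1.12-fold over each other array, which is too near the floor to give a size.

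Tnf had a single probe set, E02468cds_s_at, with 363 in the early pool, 32.7 in the intermediate and 55.9 in the late pool, against 55.1 in the sham pool and 88 in the untreated pool. The early array was at least 2.11-fold above each other array. The size of that bound is set by the floor, and with the floor at the 60th percentile no difference was left. Csf3, the ligand that acts on neutrophil precursors, read 439 in the early pool, 216 in the intermediate and 272 in the late pool by U37101_at, against 196 in the sham pool and 162, under the floor, in the untreated pool. The early array was 2.25-fold over sham and at least 2.55-fold over untreated; with 75th percentile scaling the smaller log2 difference was 0.99, just under the threshold, and with the floor at the 60th percentile no difference was left. The late array was 1.39-fold over sham and at least 1.58-fold over untreated, which did not reach 2-fold.

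**Figure D2:**
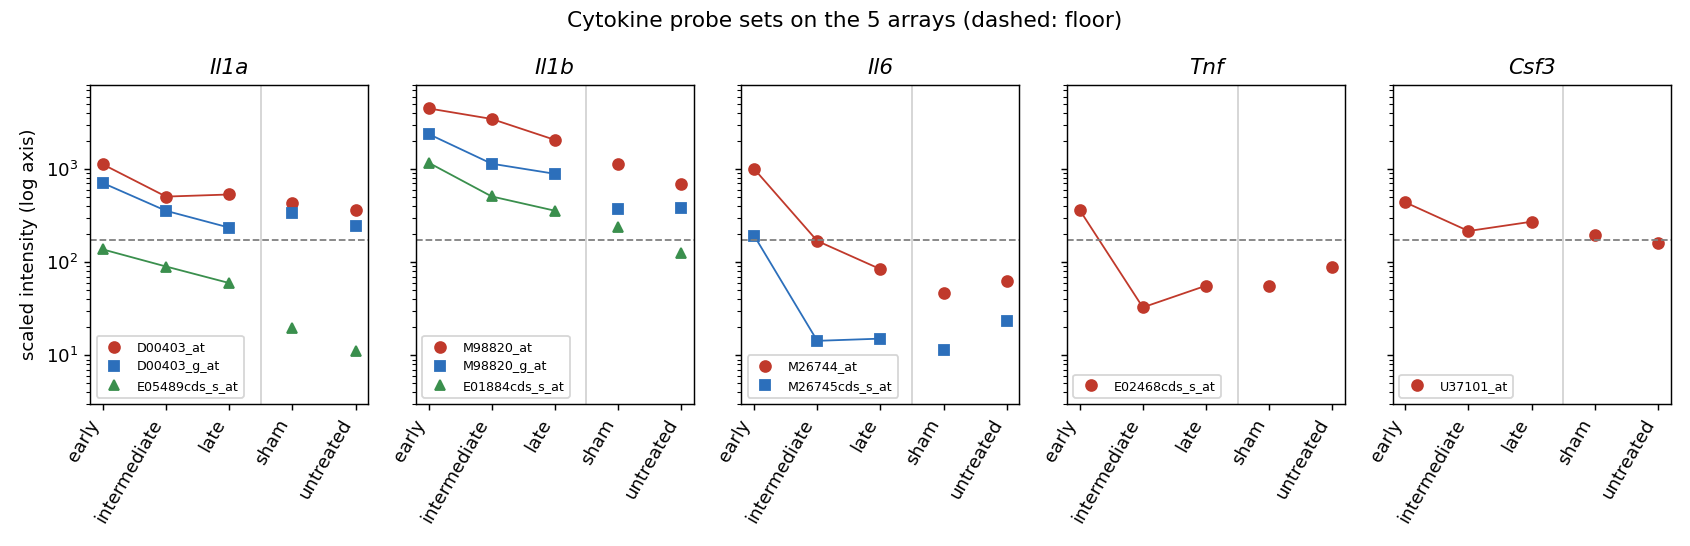
Scaled intensity (log axis) of each of the 10 probe sets on the early, intermediate, late, sham and untreated arrays, 1 panel per gene, 1 point per array, with lines joining the exposed arrays and a dashed line at the floor of 172.53. Each of the 9 probe sets that passed the floor has its highest value in the early pool, and for the 3 probe sets of Il1b, D00403_at of Il1a and the probe set of Csf3 each exposed array lies above both controls, though only Il1b probe sets are called on the intermediate and late arrays.

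**Figure D3:**
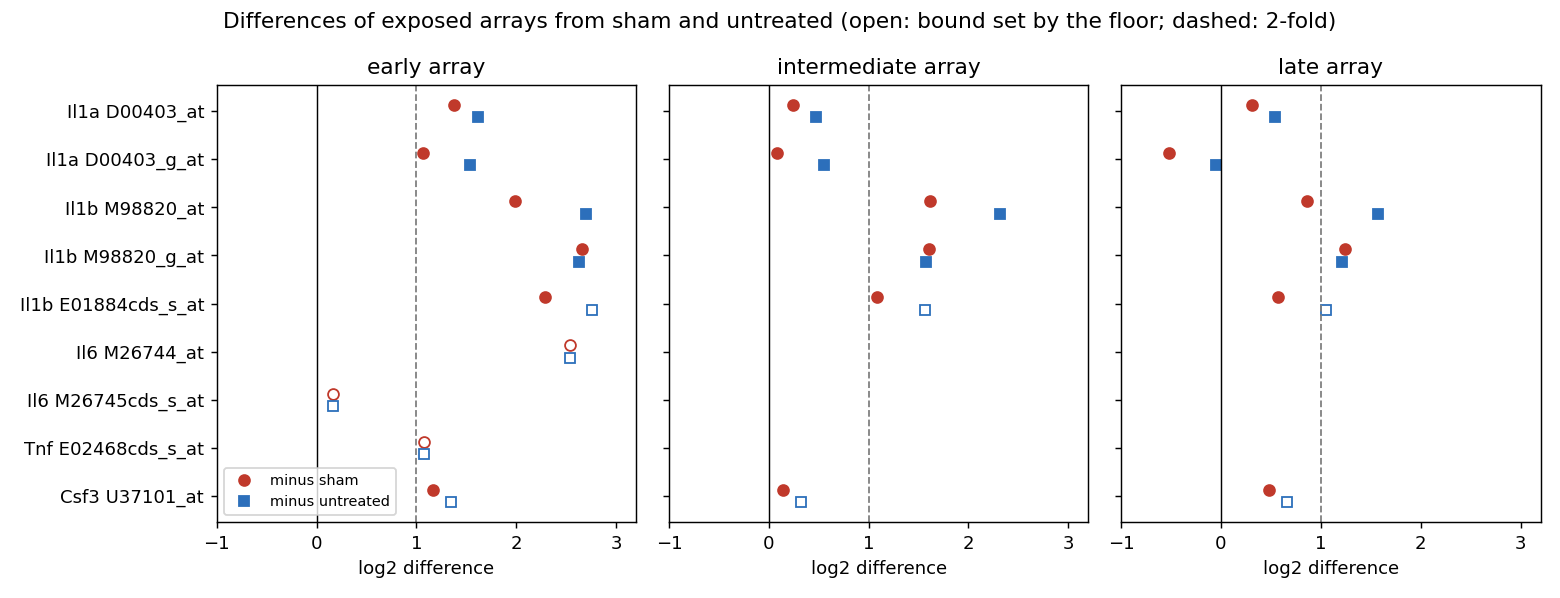
Log2 differences of the early, intermediate and late arrays from the sham array (circles) and the untreated array (squares) for the 9 probe sets that exceeded the floor on any array; open symbols are bounds set by the floor, values with both arrays under it are not drawn, and the dashed line marks 2-fold. On the early array 8 of 9 probe sets lie past the line from both controls, in the intermediate pool the 3 of Il1b, and in the late pool M98820_g_at alone.

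Set directly against the later exposed arrays, which needs no control array, the early array was at least 2-fold above both for 5 probe sets of 4 genes, where 2.57% of all probe sets were above and 0.711% below both. These were D00403_at of Il1a (2.22-fold over intermediate and 2.11-fold over late), M98820_g_at (2.09-fold and 2.67-fold) and E01884cds_s_at (2.3-fold and 3.28-fold) of Il1b, M26744_at of Il6 (at least 5.82-fold over both) and the Tnf probe set (at least 2.11-fold over both). D00403_at fell just short after quantile normalization (log2 difference 0.99), and with the floor at the 60th percentile no difference was left for Tnf. The Csf3 probe set was 2.04-fold over intermediate and 1.61-fold over late. Sham over untreated was measured for the 4 probe sets D00403_at (1.18-fold), D00403_g_at (1.38-fold), M98820_at (1.63-fold) and M98820_g_at (0.978-fold), none of them 2-fold, where 1.66% of all probe sets were called higher and 1.92% lower. It is a lower bound for E01884cds_s_at (at least 1.39-fold) and U37101_at (at least 1.13-fold), and those of Il6 and Tnf lay under the floor on both arrays, so a 2-fold effect of saline on these could not be seen. Because the sham array pooled 2, 15 and 24 h, none of these ratios gives the effect of saline at the early times alone.

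The early array also had the highest 5′ to 3′ ratio, and its part in these differences was not tested.

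The 3 exposed arrays were also compared together with the 2 unexposed ones by limma across all 6188 probe sets, in which the phases count as spread. No probe set passed a Benjamini-Hochberg adjusted p of 0.05, which is 0% called. At an unadjusted p under 0.05, 291 probe sets (4.7%) were higher and 137 (2.21%) lower, the 3 of Il1b among those higher. M98820_at averaged 11.63 ± 0.57 (SD, n = 3) on exposed and 9.79 ± 0.50 (SD, n = 2) on unexposed arrays on the log2 scale, a difference of 1.84 with a standard error of 0.40 and a 95% interval from 0.81 to 2.87 (limma, adjusted p = 0.644). M98820_g_at gave 1.82 ± 0.44 (SE, adjusted p = 0.644) and E01884cds_s_at 1.55 ± 0.54 (SE, adjusted p = 0.714). All 3 exposed arrays lay above both unexposed arrays for each.

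For the other genes this comparison averages over a peak on 1 array. Csf3 differed by 0.69 on the log2 scale (95% interval -0.15 to 1.52) and Il1a by 0.76 (-0.25 to 1.77) with D00403_at and 0.44 (-0.82 to 1.71) with D00403_g_at. Without the early array those differences were 0.40, 0.39 and 0.01. Il6 by M26744_at (0.85, interval -1.33 to 3.02) and Tnf (0.36, interval -0.60 to 1.32) rested wholly on it, with a difference of 0 when it was left out. For both, every value but the early one was set to the floor. Their differences and intervals therefore depend on that 1 value and on the floor chosen. Il1b kept 1.59, 1.41 and 1.07 by M98820_at, M98820_g_at and E01884cds_s_at without it.

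Further genes of these pathways were grouped into lists of receptors and signalling genes, regulators and known targets. The lists are textbook groupings written with earlier results known, and their counts are over probe sets above the floor. Every list count below stands beside the same shares over all 6188 probe sets. Those were 3.17%, 0.824% and 0.566% higher and 0.452%, 0.339% and 0.953% lower in the early, intermediate and late pools. Of the IL-1 receptor and signalling list, 8 of 22 genes were named on the array, and none of 8 probe sets was called on any exposed array, a count too small to set apart from the 3.17% called higher early over all probe sets. Relative to the averaged controls, the early median of this list was 0.10 (log2), where the median over all probe sets was 0; that over all was 0.07 for the intermediate and 0.05 for the late pool. Il18, an IL-1 family cytokine, and the protease Capn1 were its highest members. Chosen after their values were seen, Casp1, which cleaves pro-IL-1 beta, read 1915, 1726 and 1809 by S79676_s_at in the early, intermediate and late pools, against 1468 in the sham pool and 1810 in the untreated pool, and the receptor Il1r1 (4 probe sets) and the antagonist Il1rn (1) lay under the floor on all 5 arrays.

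In the list of the IL-6 family, 2 of 17 probe sets were higher in the early pool (list median 0.11), none in either later pool, and none was lower. They were those of the kinase Jak2 by U13396_at, 1 of its 3 probe sets, at 523 in the early pool, 139 in the intermediate and 252 in the late pool, against 217 on both control arrays, and of the transcription factor Stat3 by X91810_at, at 370 in the early pool, against 127 in the sham pool, under the floor, and 176 in the untreated pool. Of the other Jak2 probe sets, U13396_g_at read 665 early, against 333 in sham and 306 in untreated lung, and fell just short of a call. AJ000557cds_s_at read 295 early, with both controls under the floor, and was not called. A second Stat3 probe set, rc_AI639141_at, read 186 in the early pool and was not called. The IL-6 receptor Il6r, chosen after its values were seen, was flat at 1451, 1222 and 1393 in the early, intermediate and late pools, against 1280 in the sham pool and 1263 in the untreated pool. Socs3 of the same list, also chosen after its values were seen, was highest in the sham pool. It read 242, 43.3 and 58.6 in the early, intermediate and late pools, against 524 in the sham pool and 75.9 in the untreated pool. Its early level was 0.461-fold of sham and at least 1.4-fold over untreated, so it was not called.

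None of 13 probe sets of the TNF family list was called on any exposed array, likewise too few to set apart from the share over all probe sets, and the list median was 0.79 in the early pool, 0.29 in the intermediate and 0.13 in the late pool. The TNF receptor Tnfrsf1a read 2873, 1900 and 1520 in the early, intermediate and late pools, against 1279 in the sham pool and 1503 in the untreated pool, 2.25-fold and 1.91-fold in the early pool and so just short of a call. Litaf, a gene named for its induction by lipopolysaccharide, read 7708, 5815 and 5549 in the early, intermediate and late pools, against 4582 in sham and 3848 in untreated lung. In the list of colony stimulating factors and receptors 1 of 7 probe sets was higher in the early pool, that of the stem cell factor receptor Kit by D12524_g_at, 1 of its 2 (2.04-fold over sham and at least 2.25-fold over untreated), and none was called later. The other Kit probe set, D12524_at, was 1.13-fold over sham and 1.53-fold over untreated early. A count of 1 of 7 is too small to set apart from the share over all probe sets. The G-CSF receptor Csf3r had no probe set named in the annotation.

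Among regulators of NF-kB and of cytokine messenger RNA decay, 4 of 15 probe sets were higher in the early pool and none on later arrays, with a list median of 0.39. All 4 belonged to Nfkbia, the NF-kB inhibitor that NF-kB itself induces, and Zfp36 (tristetraprolin), which targets Tnf messenger RNA for decay. Nfkbia read 5754 by X63594cds_at in the early pool, 2120 in the intermediate pool and 1971 in the late pool, against 2013 in the sham pool and 1339 in the untreated pool. Zfp36 read 2007, 689 and 766 by X63369cds_at in the early, intermediate and late pools, against 758 in sham and 835 in untreated lung. Of 9 probe sets for other cytokines none was called early or in the intermediate pool; in the late pool Spp1 was higher (1799, against 660 in sham and 463 in untreated lung) and Il13 lower (85.1, under the floor, against 465 in sham and 347 in untreated lung).

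Known targets of IL-1 and TNF in endothelium and epithelium had 11 of 21 probe sets higher in the early pool, 4 in the intermediate and 3 in the late pool, and none lower, with list medians of 1.12, 0.39 and 0.19. The chemokine Cxcl2, a neutrophil attractant, read 1416, 256 and 180 in the early, intermediate and late pools, against 171 in the sham pool and 53.2 in the untreated pool, both under the floor. The monocyte attractant Ccl2 read 7097, 5367 and 4277 by X17053mRNA_s_at in the early, intermediate and late pools, against 888 in sham and 812 in untreated lung. Tissue factor F3, the nitric oxide synthase Nos2 by U03699complete_seq_at, the superoxide dismutase Sod2 and the urokinase receptor Plaur were further early calls, with folds over sham of 4.45, 3.94, 4.35 and 2.78. Ccl2 was called on all 3 exposed arrays and Sod2 in the early and intermediate pools. Nos2 was called on all 3 by that probe set alone: S71597_s_at read 173, 214 and 196 in the early, intermediate and late pools, against 83 in sham and 251 in untreated lung, U16359cds_at was above the floor in the intermediate and untreated pools only and was not called, and AF006619_s_at lay under the floor on all 5 arrays.

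Acute phase genes that IL-6 and IL-1 induce had 8 of 29 probe sets higher in the early pool, 6 in the intermediate and 2 in the late pool, and none lower (list medians 0.54, 0.24 and 0.14). The other 21, 23 and 27 were not called. Among these, chosen after its values were seen, A2m read 581, 638 and 1011 by M23566exon_s_at in the early, intermediate and late pools, against 774 in sham and 1002 in untreated lung. Hpx, chosen likewise, read 350, 348 and 359, against 364 in sham and 341 in untreated lung. The transcription factor Cebpd (2187, 564 and 624 by rc_AI045030_s_at in the early, intermediate and late pools, against 394 in sham and 262 in untreated lung) and the fibrinogen chain Fgg (2463, 1168 and 931 in the early, intermediate and late pools, against 1000 in sham and 717 in untreated lung) were called in the early pool alone, though another Cebpd probe set, rc_AA946292_at, read 281 early, against 433 in sham and 270 in untreated lung, and was not called. The plasma protein Orm1 (499, 2399 and 1201 in the early, intermediate and late pools, against 277 in sham and 187 in untreated lung), complement C3 (4908, 13125 and 8473 by X52477_at in the early, intermediate and late pools, against 4893 in sham and 4081 in untreated lung) and the siderophore-binding protein Lcn2 (30982, 49008 and 38177 in the early, intermediate and late pools, against 20334 in sham and 5976 in untreated lung) had their highest value in the intermediate pool, after that of the cytokines. The other C3 probe set, M29866_s_at, was also highest in the intermediate pool but already raised early. It read 5539, 6955 and 4881 in the early, intermediate and late pools, against 3062 in sham and 2514 in untreated lung. Its early level was 1.81-fold over sham and 2.2-fold over untreated, and it was called in the intermediate pool alone. Timp1, a metalloproteinase inhibitor, was called on all 3 arrays by rc_AI169327_g_at, and by rc_AI169327_at in the early and intermediate pools only.

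**Figure D4:**
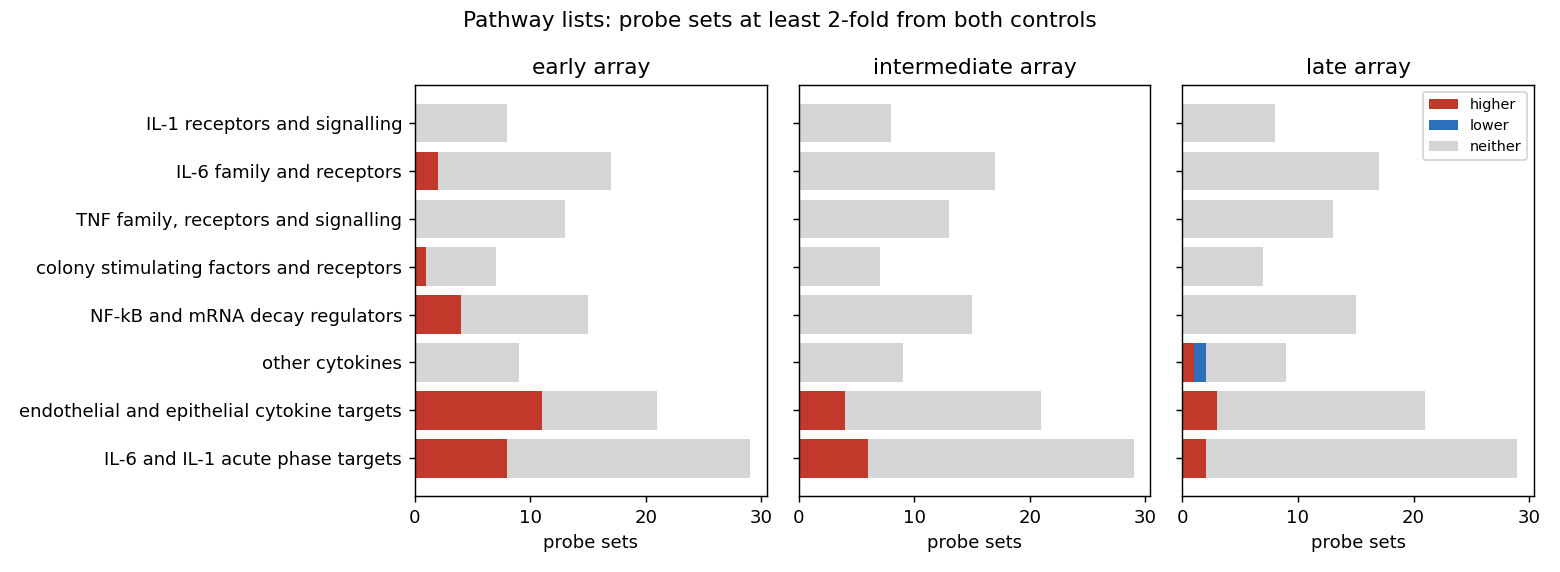
Number of probe sets above the floor (x axis) in each pathway list that were at least 2-fold higher (red), lower (blue) or neither (grey) relative to both control arrays, 1 panel per exposed array. The targets of IL-1 and TNF have 11 of 21 higher in the early pool and the lists of IL-1 and of TNF receptors and signalling have 0 of 8 and 0 of 13, where 3.17% of all probe sets were called higher; the difference between lists was not tested.

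Likeness was the root mean square difference of 4 log2 values (each exposed array minus the mean of the controls, and sham minus untreated). Each cytokine was represented by its probe set of highest mean alone: M98820_at for Il1b, M26744_at for Il6 and D00403_at for Il1a. Other probe sets of Il1b and Il1a had different profiles, so the likeness holds for the probe set used. Among 5059 named probe sets, the genes most like Il1b were Timp1 (0.25), Nos2 (0.42, by U03699complete_seq_at), the chemokine Ccl3 (0.49), the nucleoside kinase Uck2 (0.55) and heme oxygenase Hmox1 (0.56). Those most like Il6 were the AP-1 subunit Fosl1 (0.11), the thioredoxin reductase Txnrd1 (0.25), the stress-induced phosphatase subunit Ppp1r15a (0.31), the death receptor Tnfrsf21 (0.32) and Myc (0.36); Fosl1 and Tnfrsf21, like Il6, were above the floor in the early pool alone. The endoplasmic reticulum chaperone calnexin (Canx, 0.09), glutamine synthetase (Glul, 0.13), Ier3 (0.13), Bcat1 (0.13) and Trib3 (0.14) were nearest to Il1a, and Cd14 (0.07), Pitpnb (0.08), Pdzk1ip1 (0.12), Canx (0.13) and Mapkapk3 (0.13) to Csf3. The 5 nearest to Tnf (Mybbp1a, Stat3, Cdc42bpb, Prss22 and Car2, up to 0.06) share its values at or near the floor on 4 arrays, which fixes most of the likeness. Il6 also lay under the floor on 4 arrays, so likeness to it rests on the early value and on small differences elsewhere. These values rest on 5 arrays and describe likeness of profile only.

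In RNA of whole lung, more cells of a type and more RNA per cell cannot be told apart. For neutrophil markers, 7 of 14 listed genes were on the array. Their summed scaled intensity was 6178 in the early pool, 5727 in the intermediate and 3860 in the late pool, against 2881 in the sham pool and 2163 in the untreated pool. Of these 7, Cxcr2, Itgam and Mmp8 lay under the floor on all 5 arrays. S100a8 was called higher in the early pool alone, S100a9 in the early and intermediate pools and Padi4 in all 3 exposed pools. Padi4 was highest in the intermediate pool (1432, against 957 early and 990 late). Mmp9 was above the floor in the late pool alone, at 197, and was not called. The sum of 9 of 14 macrophage and monocyte markers was 59239, 78775 and 80051 in the early, intermediate and late pools, against 62614 in sham and 56698 in untreated lung. Most of that sum was the lysozyme Lyz2, at 44778, 65142 and 64169 in the early, intermediate and late pools, against 52966 in sham and 48269 in untreated lung. The median log2 difference of the probe sets in the list from the averaged controls was 0.69, 0.37 and 0.66 in the early, intermediate and late pools. Cd14 was called higher early by AF087943_s_at, the macrophage elastase Mmp12 in all 3 exposed pools, and the Fc receptor Fcgr2b and the protease Ctsk late, while Ccr2 and Csf1r were under the floor throughout. A second Cd14 probe set, AF087944mRNA_s_at, was 1.74-fold over sham and 1.98-fold over untreated early and was not called. Summed alveolar epithelial markers (8 of 10) were 184178, 219294 and 219069 in the early, intermediate and late pools, against 190601 in sham and 175135 in untreated lung. Lymphocyte markers (10 of 13) summed to 35030, 41320 and 44713 in the early, intermediate and late pools, against 37529 in sham and 38377 in untreated lung. Most of the lymphocyte sum was Cd74 by X13044_g_at, at 30522, 36707 and 40543 in the early, intermediate and late pools, against 33261 in sham and 32950 in untreated lung. The sum therefore mostly follows this 1 gene and is not a measure of lymphocytes. The median log2 difference of the probe sets in that list from the averaged controls was 0, -0.2 and 0.13 in the early, intermediate and late pools. None of the 15 lymphocyte probe sets above the floor was called on an exposed array. Caveolin Cav1, the 1 epithelial marker called, was higher early and lower in the intermediate pool, at 2655, 317 and 535 in the early, intermediate and late pools, against 808 in sham and 783 in untreated lung. The part of cell composition in the cytokine differences was not tested.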

How the data were processed

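The 5 arrays were 1-colour oligonucleotide arrays. The deposited intensity is a linear value for each of 8799 probe sets. Scaling by the authors is inferred from the values alone: their means without the top and bottom 2% ran from 1001.38 to 1001.63. No label or header names the software. From these intensities, 59 control probe sets were left out, arrays were scaled to equal medians (factors 0.931 to 1.068), floored at the 40th percentile and taken to log2. GEO's platform annotation gave 1 symbol to 7006 probe sets, several to 308 and none to 1426; only those with 1 were named. The 3 exposed and 2 unexposed arrays were compared with limma 3.58.1 in R 4.3.3 (lmFit, eBayes, Benjamini-Hochberg adjustment over 6188 probe sets); its p-values reflect the spread among 5 arrays, phases included, and that number limits the precision. Other steps used Python 3.11.15. The fold rule and limma were tested on simulated data. Alternatives were other scalings, floors, fold rules, filters, 1 probe set a gene and leaving out each array. Named genes were all probe sets of the 5 cytokines, the 5 nearest profiles each, up to 6 called genes per pathway list (with none called, the 2 of highest mean) and up to 4 called per marker list; other names are marked as chosen after their values were seen, or are second probe sets, marker genes at the floor or label checks. The cytokines and lists were chosen with earlier results of these data known.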

Additional observations from a re-analysis of the deposited data

How the results depend on the processing

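Of 250 recalculated fold differences of the 10 cytokine probe sets under other scalings and floors, 233 stayed on the same side of 2-fold, 12 fell under it and 5 passed it, and none that was called changed sign. Only differences called in the main setting could fall under it. Those were 8 early, 3 intermediate and 1 late against both controls, 5 for early against both later arrays and 0 for sham against untreated. Many of the rest were fixed at 0 by the floor, so 233 of 250 does not measure how stable the calls were. All 116 recalculated limma differences missed the threshold, as in the main fit, where there was no call to lose. The number of cytokine probe sets higher on the early array was 8 by the main setting and 5 (floor at the 60th percentile) to 10 (20th percentile) by the others, and that on the intermediate array 3 and 2 to 4. The limma difference of Il1b by E01884cds_s_at was 0.50 with the floor at the 60th percentile, against 1.55.

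Counts over all probe sets, higher and lower together, are 224 (early), 72 (intermediate) and 94 (late) against both controls, 222 for sham against untreated and 203 for early against both later arrays. In that order they were 467, 332, 357, 1047 and 443 with the floor at the 20th percentile, where more dim probe sets enter, 131, 39, 47, 52 and 122 at the 60th, and 104, 40, 60, 116 and 91 with 1 probe set a gene, where fewer are tested. For the early, intermediate and late arrays they were 677, 404 and 386 at 1.5-fold, 432, 255 and 268 against sham alone, and 428, 213 and 268 against untreated alone. The limma count, 0, was 3 without a filter (M58308_at of Hal, X14674_at of Prm2 and X52625_at, all outside the cytokines and named after their values were seen) and 0 under the other alternatives, each array left out included; the cause was not tested. Higher calls made up 70.8% on the intermediate array, against 42.9% without scaling, 51.4% scaled to 75th percentiles and 55.2% quantile normalized, 37.2% on the late array, against 23.5% without scaling, and 46.4% for sham against untreated, against 62.4% with 75th percentile scaling. No paired analysis was possible because each group has 1 array. Levels near the floor, as for Tnf and second probe sets of Il6 and Il1a, limit what can be sized.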
